A study of Mus musculus with 18 samples.

Results

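The acute phase plasma proteins described here are the products of 10 mouse genes. Apcs and Crp are the short pentraxins, and Saa1, Saa2, Saa3 and Saa4 are the serum amyloid A family. The products of Orm1, Hp, Hpx and Lcn2 carry or bind other molecules. The members were found by gene symbol in the platform annotation. All 10 were on the array, on 11 of the 21765 spots used, because Saa4 had 2 spots. They are 10 of 15095 named genes and of 20218 features, a feature being a gene or a spot without a gene symbol. The 10 genes were chosen with their strain ratios already known, so these ratios are given as a description. Where a member is said to pass a threshold, this places it among all features and is not a test of it.

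RNA from whole liver, whole kidney and whole brain of the inbred strains DBA/2J and C57BL/6J (spelled DBA2/J and C57Bl/6J in the sample labels) was compared on 18 glass arrays with 2 colours, 6 for each tissue. A pool of 9 mice of each strain was used for liver, and a pool of 10 for kidney and for brain. On every array of a tissue the same DBA/2J pool, labelled with Alexa Fluor 647, met the same C57BL/6J pool, labelled with Alexa Fluor 555, and the dyes were not exchanged, so that strain and dye cannot be told apart. The sources used here do not give age, sex, feeding or treatment of the mice, and no genetic change other than the strain is named. SDs and p-values thus describe how repeated hybridisations of a pair of pools varied, and not how mice varied, and 6 arrays a tissue limit the precision of each mean.

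Values are log2 ratios of DBA/2J over C57BL/6J, so that 1 means a 2-fold higher DBA/2J level. The labels do not state the direction, which is likely from their order of strains and dyes. Glo1, a glyoxalase gene duplicated in DBA/2J, had positive ratios in liver (0.92 ± 0.15, SD, n = 6 arrays), kidney (0.77 ± 0.34) and brain (0.65 ± 0.13). Hc, the complement C5 gene, of which DBA/2J carries a defective allele, had a negative ratio in liver (-1.10 ± 0.50). Between arrays of a tissue the normalised ratios correlated, across spots, with a mean Pearson's r of 0.477 in liver, 0.644 in kidney and 0.387 in brain. The labelled tissues were set against marker lists by spot intensity. The median intensity percentile of 12 hepatocyte markers was 99.5 in liver, that of 14 kidney tubule markers 97.2 in kidney and that of 14 brain cell markers 84.4 in brain. In tissue RNA, fewer cells of a type and less RNA in each cell cannot be told apart.

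Acute phase proteins are secreted mainly by hepatocytes, and their plasma levels change within hours of infection or injury. Interleukin-6 acts through the gp130 receptor chain, JAK kinases and STAT3, interleukin-1 and tumour necrosis factor act through NF-kB, and C/EBP factors act with both on the promoters of these genes. In mice serum amyloid P, encoded by Apcs, and serum amyloid A are the major reactants, whereas C-reactive protein responds little. Inbred mouse strains are known to differ in resting serum amyloid P, with high levels in DBA/2 and low levels in C57BL/6.

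Promoter windows, from 250 bases before to 50 bases after the gene start, were taken from RefSeq (assembly GRCm38.p6, the C57BL/6J reference) for the 8 members with an entry, which leaves out Hp and Orm1. No DBA/2J sequence was used, so these letters describe the genes and not the strain difference. The Apcs window is shown because Apcs had the largest ratio of the group. It lies at chr1:172895005-172895304 on the minus strand, and capitals mark matches to the motifs searched.
Apcs: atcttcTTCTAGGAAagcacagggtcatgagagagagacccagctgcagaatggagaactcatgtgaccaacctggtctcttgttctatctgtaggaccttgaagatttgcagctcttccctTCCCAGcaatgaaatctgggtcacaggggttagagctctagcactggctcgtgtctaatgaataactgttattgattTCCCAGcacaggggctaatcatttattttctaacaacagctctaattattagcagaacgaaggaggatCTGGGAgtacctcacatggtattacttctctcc
The motifs were searched on both strands in 32851 promoter windows. TTCNNNGAA, the palindrome bound by STAT3, matched in Apcs alone among the 8 members, 244 bases before the gene start, and in 8.30% of all windows. CTGGGA, the core of an older type of interleukin-6 response element, matched at 3 places in the Apcs window. It also matched in Crp and Saa3, and in 31.8% of all windows. TTNNGNAA, a loose C/EBP consensus, matched in 7 of the 8 members, all but Apcs, and in 40.7% of all windows. A consensus for NF-kB matched in 0 of the 8 members and in 1.63% of all windows. TATAAA, the TATA box consensus, matched in Crp alone among the members and in 13.6% of all windows. Some TTNNGNAA and TTCNNNGAA matches can overlap, and a match is a description of these letters, not of binding.

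The windows of Saa1 and Saa2 are shown because these neighbouring genes had liver ratios of opposite sign. They lie at chr7:46742931-46743230 on the minus strand and at chr7:46751583-46751882 on the plus strand. Capitals mark the bases at which they differ.
Saa1: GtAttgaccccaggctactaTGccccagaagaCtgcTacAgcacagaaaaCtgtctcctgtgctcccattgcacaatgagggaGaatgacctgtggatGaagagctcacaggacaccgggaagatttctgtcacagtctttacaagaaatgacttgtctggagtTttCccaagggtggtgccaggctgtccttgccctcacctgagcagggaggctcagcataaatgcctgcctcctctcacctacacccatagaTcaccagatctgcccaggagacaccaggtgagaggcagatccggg
Saa2: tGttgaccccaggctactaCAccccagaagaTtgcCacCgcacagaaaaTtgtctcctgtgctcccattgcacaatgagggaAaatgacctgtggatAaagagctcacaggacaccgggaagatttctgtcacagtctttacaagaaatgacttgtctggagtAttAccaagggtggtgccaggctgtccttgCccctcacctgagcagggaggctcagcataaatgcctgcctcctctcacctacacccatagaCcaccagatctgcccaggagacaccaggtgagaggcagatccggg
The windows were 95.3% identical, with 287 identical of 301 aligned positions, 12 substitutions and 2 positions with a gap. The other pairs of members had identities of 43.3% to 51.9%. Counted from 1 at the 5′ end of the Saa1 window, T165A and C168A fall within its C/EBP match TTTCCCAA at positions 165 to 172, which the Saa2 window lacks. Both windows hold the match TTGCACAA. In the RefSeq gene table Saa3, Saa4, Saa1 and Saa2 follow each other with 0 coding genes between them, and so do Crp and Apcs. Genes as alike as Saa1 and Saa2 may share hybridisation, and the probe sequences were not used here, so the assignment of their signals is uncertain.

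Most of the group were liver genes by spot intensity. The choice of members did not use intensity, but it took proteins secreted mainly by hepatocytes, so a high share was likely beforehand. Of the 11 spots, 8 were brightest in liver and at least 2-fold brighter there than in either other tissue, against 2.17% of all spots. Intensities were recovered from the ratios and were not normalised between tissues, so each spot is also placed by its percentile among all features of the same tissue. Orm1, which encodes the drug-binding protein orosomucoid 1, lay at percentile 99.1 in liver, 9.26 in kidney and 3.42 in brain. Hpx, the haem carrier hemopexin, lay at 99.7, 53.3 and 79.3. Hp, the haemoglobin-binding haptoglobin, lay at 97.4, 51.6 and 53.3.

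Apcs lay at percentile 87.8 in liver, 36.8 in kidney and 25.8 in brain, and Crp at 89.0, 30.5 and 17.6. Saa2 lay at 93.6 in liver, and Saa3 had a fitted log2 intensity of 9.70 in liver, 7.98 in kidney and 8.44 in brain. The first Saa4 spot followed the same pattern, with a fitted log2 intensity of 9.60 in liver, 7.70 in kidney and 7.41 in brain. The other 3 spots did not. Saa1 had 8.40 in liver, 8.34 in kidney and 9.01 in brain, the second Saa4 spot 7.25, 7.49 and 8.06, and Lcn2, the siderophore-binding lipocalin 2, 7.29, 7.77 and 7.54. The median over all spots was 7.83 in liver, 8.01 in kidney and 8.60 in brain. By percentile Saa1 lay at 71.0 in liver, 62.4 in kidney and 61.3 in brain, and Lcn2 at 20.7, 38.2 and 14.1, so neither had the contrast between liver and both other tissues that the 8 spots showed.

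**Figure D1:**
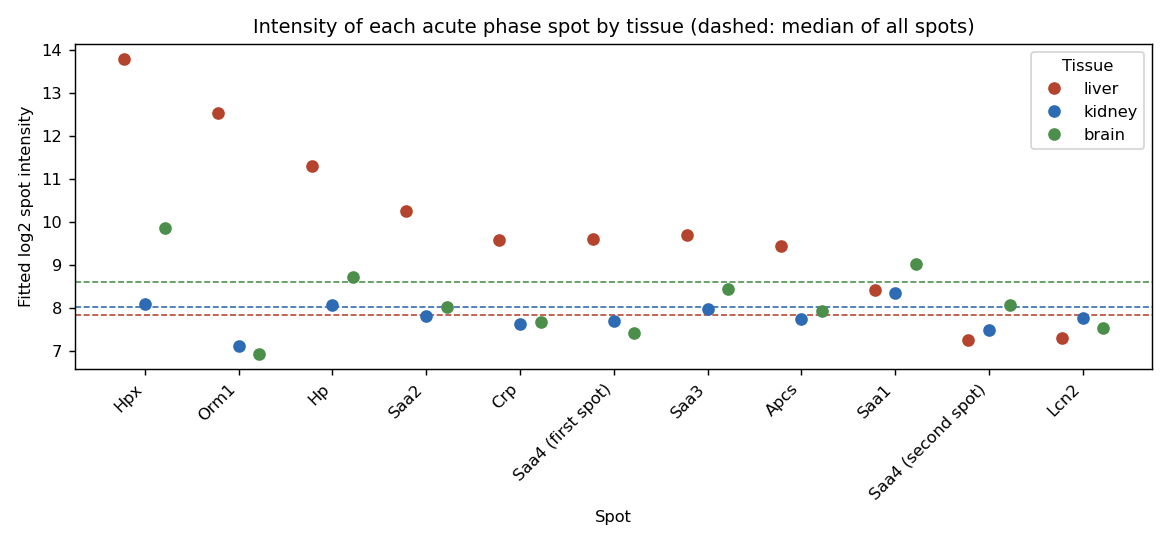
Fitted log2 intensity (vertical axis) of each of the 11 spots (horizontal axis) in liver, kidney and brain (points), with dashed lines at the median of all spots of each tissue. Orm1 falls from 12.53 in liver to 7.12 in kidney and 6.93 in brain, whereas Saa1 has 8.40, 8.34 and 9.01, against medians over all spots of 7.83, 8.01 and 8.60.

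In liver, Apcs stood far from the rest of the group. Its log2 ratio was 2.13, 1.20, 1.80, 1.66, 1.82 and 1.91 on arrays 1 to 6. All 6 arrays were high, and the lowest, array 2, was still above every value of every other member. The mean was 1.76 ± 0.31 (SD, n = 6 arrays), a level 3.38-fold higher in DBA/2J, and only 4 of the 20218 features had a higher mean in liver. Before normalisation the deposited ratios of the spot were 0.54, 0.12, 0.70, 0.91, 1.22 and 1.04, positive on all 6 arrays although the median of all spots was below 0 on each of them. Every processing tried gave a mean between 1.68 and 1.87. The median recovered signal of the Apcs spot over the liver arrays was 923 in the DBA/2J channel and 601 in the C57BL/6J channel, before normalisation.

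Crp, the gene next to Apcs, had the opposite sign in liver. Its ratios were -0.58, 0.07, -0.28, -0.18, -0.51 and -0.75, lower in DBA/2J on 5 of 6 arrays. The mean was -0.37 ± 0.30, the lowest of the group, and its spread overlapped 0 through array 2. The ranges of Apcs and Crp did not overlap on the liver arrays.

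The serum amyloid A genes, apolipoproteins of high density lipoprotein in the acute phase, did not share a direction. Saa1 was higher in DBA/2J on all 6 liver arrays, with 0.50, 0.36, 0.14, 0.32, 0.32 and 0.36 and a mean of 0.33 ± 0.12, or 1.26-fold. Saa2 had -0.40, -0.52, -0.30, -0.18, 0.00 and -0.37, a mean of -0.30 ± 0.18, or 1.23-fold lower. Every Saa1 value lay above every Saa2 value. Saa3, which macrophages and fat cells also make, lay on both sides of 0, from -0.10 to 0.28 with a mean of 0.07 ± 0.16. The 2 spots of Saa4, the family member expressed without stimulation, disagreed. The first, the brighter in liver, was below 0 on all 6 arrays (-0.47 to -0.22, mean -0.32 ± 0.11), and the second, at intensity percentile 18.9, had a mean of -0.01 ± 0.12. Their average, -0.17 ± 0.08, is therefore not a measurement that both spots share.

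Among the carriers, Orm1 was higher in DBA/2J on all 6 liver arrays. Its ratios were 0.55, 0.66, 0.35, 0.13, 0.53 and 0.17, with arrays 4 and 6 lowest, and its mean was 0.40 ± 0.22, or 1.32-fold. Orm1 has close copies, Orm2 and Orm3, beside it in the genome, and the probe may also have measured these. Hpx was above 0 on all 6 arrays, but by little, with 0.29 and 0.32 on arrays 1 and 2, 0.03 to 0.11 on the others and a mean of 0.14 ± 0.12. Hp had -0.34 to -0.17 on arrays 2 to 6 and 0.06 on array 1, a mean of -0.20 ± 0.14. Lcn2 had 0.20, -0.16, 0.31, 0.55, 0.59 and 0.41, a mean of 0.31 ± 0.27, on a spot at intensity percentile 20.7. The haem carrier and the haemoglobin carrier thus lay on opposite sides of 0, each within 0.35 of it on every array.

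**Figure D2:**
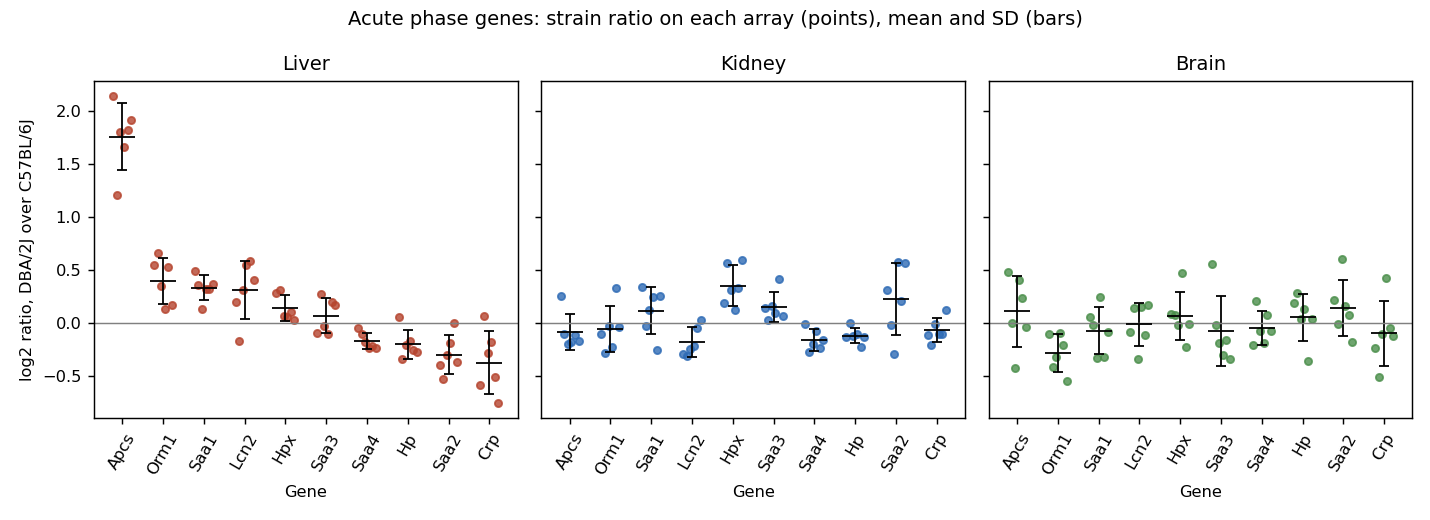
Log2 ratio of DBA/2J over C57BL/6J (vertical axis) of the 10 genes (horizontal axis) on each array (points) with mean and SD (bars), in 1 panel per tissue. Apcs lies between 1.20 and 2.13 on the liver arrays, and no value of another gene in liver exceeds 0.66.

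Of the 10 members, 4 had means past the limma threshold (adjusted p of 0.05) as higher in liver (Apcs, Orm1, Saa1 and Lcn2) and 2 as lower (Saa2 and Crp). Among all features 10.8% passed as higher and 12.2% as lower, 23.0% in all. Ratios of 1 sign on all 6 arrays were found for 4 members as higher and 1 as lower, and for 25.2% of all features, 12.5% higher and 12.7% lower. The 1 lower member was Saa4, through the average of its 2 spots. Since the members were chosen on these ratios, nothing is read from their counts or from which of them passed. The median of the 10 means was 0.11, and that of all features 0.00. The place of Saa1, Saa2, Crp and Lcn2 beyond the threshold depended on the processing. Under median centring without loess Saa1 (0.23), Saa2 (-0.26) and Crp (-0.28) no longer passed and Hpx (0.34) did, and with intensities left unrestored Crp (-0.28) and Lcn2 (0.25) no longer passed. Crp also fell short without array 1 or 6, and Lcn2 without array 1, 3, 4, 5 or 6, whereas Hp passed without array 1. With each spot taken by itself, 7 members passed. Apcs and Orm1 stayed past the threshold under every alternative, which describes the processing and is not a test of these chosen genes.

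**Figure D3:**
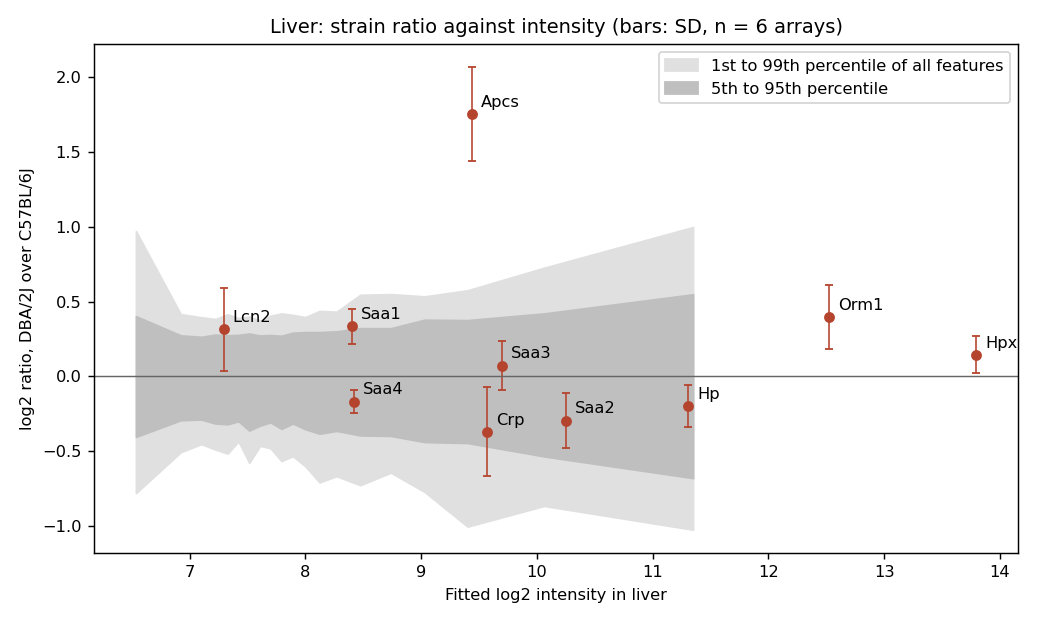
Mean log2 ratio in liver (vertical axis, bars SD over 6 arrays) against fitted log2 intensity (horizontal axis) for the 10 genes, over grey bands that hold the 1st to 99th and the 5th to 95th percentile of all features of like intensity. Apcs, at 1.76, lies far above the bands.

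**Figure D4:**
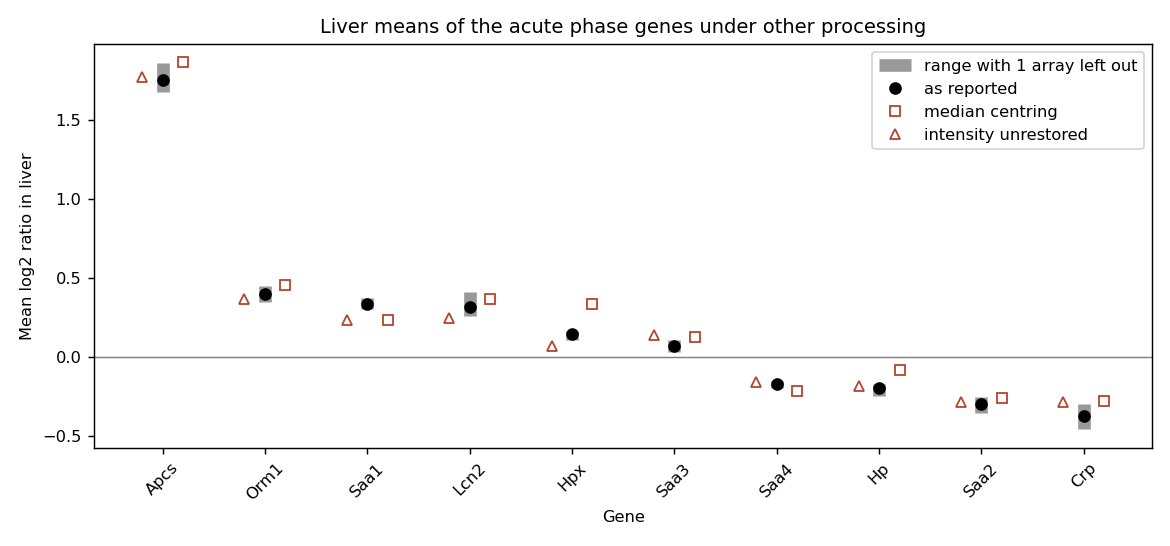
Mean log2 ratio in liver (vertical axis) of the 10 genes (horizontal axis) as reported (filled points), with median centring (squares), with intensity unrestored (triangles) and over fits with 1 array left out (grey bars). No mean changes sign, and Hpx moves most, from 0.14 to 0.34 with median centring.

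In kidney, Apcs showed no such ratio, on a spot dimmer than in liver (intensity percentile 36.8). Its values ran from -0.20 to 0.25 with a median of -0.14 and a mean of -0.08 ± 0.17, and only array 1 was above 0. Hpx was the member farthest from 0, with 0.19, 0.57, 0.31, 0.12, 0.33 and 0.60, all 6 higher in DBA/2J, and a mean of 0.35 ± 0.19, or 1.28-fold. Saa3 was also above 0 on all 6 arrays (0.03 to 0.42, mean 0.15 ± 0.14), and Hp was below 0 on all 6 (-0.23 to -0.00, mean -0.12 ± 0.07). Saa4 as a gene was below 0 on all 6 (-0.27 to -0.00, mean -0.16 ± 0.10), although each of its 2 spots had 1 array above 0. Saa2 had the widest range in kidney, -0.29 to 0.58, with a mean of 0.23 ± 0.34. Saa1 (0.12 ± 0.22), Crp (-0.07 ± 0.11), Orm1 (-0.06 ± 0.22) and Lcn2 (-0.18 ± 0.14) had arrays on both sides of 0. Hpx, as higher, was the only member past the threshold, 1 of 10, where 41.2% of all features passed, 20.6% as higher and 20.7% as lower. For 2 members all arrays were higher and for 2 all were lower, and 36.0% of all features had 1 sign on all arrays, 17.3% higher and 18.7% lower. The count of members in kidney became 6 with median centring, 3 with intensities unrestored, and 2 with arrays scaled to equal spread or without array 3, 5 or 6.

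In brain, Orm1 was lower in DBA/2J on all 6 arrays. It had -0.10, -0.41, -0.32, -0.09, -0.20 and -0.54, a mean of -0.28 ± 0.18, but on a spot at intensity percentile 3.42. The other 9 members had means between -0.10 and 0.15. Apcs, at intensity percentile 25.8, ranged from -0.42 to 0.48 (mean 0.11 ± 0.33), with 3 arrays on each side of 0. Orm1 was the only member past the threshold, 1 of 10 against 14.1% of all features, 7.65% as higher and 6.48% as lower. It was also the 1 member with a single sign on all arrays, where 18.3% of all features had this, 8.88% higher and 9.42% lower. Saa4 as a gene had arrays on both sides of 0 (-0.21 to 0.21). Its second spot was below 0 on all 6 arrays (mean -0.18 ± 0.11), and its first had a mean of 0.10 ± 0.26. Without array 2, 3, 4, 5 or 6 Orm1 no longer passed, and it was not among the features when dim ones were left out.

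The tissues were then set side by side, each with its own pools. For Apcs the liver ratio exceeded the kidney ratio by 1.84 (SE 0.15) and the brain ratio by 1.64 (SE 0.15), and the liver arrays did not overlap with those of either other tissue. For Orm1 the liver ratio exceeded the brain ratio by 0.68 (SE 0.12), again without overlap. It exceeded the kidney ratio by 0.45 (SE 0.12), with overlap. The liver ratio of Lcn2 was 0.49 (SE 0.12) above its kidney ratio, and that of Saa2 was 0.52 (SE 0.14) below its kidney ratio. Only a dye effect that is the same for a spot in all tissues would drop out of these differences, and whether it was the same was not tested. Among all features, 20.3% differed between liver and kidney past the threshold, 7.81% between liver and brain and 24.4% between kidney and brain. Groups of arrays that do not overlap were found for 1 of 10 members between liver and kidney, against 9.73% of all features, for 2 of 10 between liver and brain, against 3.82%, and for 0 of 10 between kidney and brain, against 8.96%. Nothing is read from these counts, since the liver ratios chose the members.

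Named genes whose ratios followed those of Apcs, Orm1 and Crp over the 18 arrays were taken as a description. They share arrays, pools and dyes with the members. For Apcs, the 3 highest Pearson's r belonged to AY036118 (0.937), Ms4a6c (0.936) and Gosr1 (0.933). For Orm1 they belonged to 1700111N16Rik (0.896), Rnu5g (0.853) and Enho (0.845), and for Crp to Psma2 (0.833), Hacd1 (0.797) and 1700084J12Rik (0.789). Because r was taken over all 18 arrays, it also holds differences between tissues, and a high r need not mean a like ratio in liver. Gosr1, a Golgi SNARE gene, had a liver mean of 1.20 ± 0.36 at intensity percentile 9.73. AY036118 had a liver mean of 0.72 and Ms4a6c of 0.55. For 1700111N16Rik, Rnu5g and Enho it was 1.01, 0.09 and 0.41. For Psma2, Hacd1 and 1700084J12Rik it was -0.08, -0.24 and -0.20.

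The other genes of the acute phase pathway were counted from 6 lists that the members did not enter, 133 genes measured of 159 listed. Apoa1, the apolipoprotein of high density lipoprotein, is in 2 of the lists (negative reactants, and receptors and partners) and is counted in both, but once in the totals. In liver 37 of the 133 passed the threshold in limma's test, and 23.0% of all features did. Of 32 genes listed as other positive acute phase proteins, 3 were higher and 9 lower in DBA/2J, with a median of -0.07. With median centring this became 5 higher and 3 lower. The list is broad, and some genes on it may not rise, or may fall, in the acute phase of mice. Hamp, which encodes the iron hormone hepcidin, rose most in DBA/2J (1.06 ± 0.58, adjusted p = 0.000988, higher on 6 of 6 arrays). Fn1, fibronectin, was higher by 0.38 ± 0.15 and Plg, plasminogen, by 0.25 ± 0.21. Plg no longer passed with intensities unrestored or without array 1, 3, 4, 5 or 6. The protease inhibitor gene Mug1 (-0.54 ± 0.22), the complement factor gene Cfb (-0.48 ± 0.13) and Itih1, an inter-alpha-trypsin inhibitor heavy chain (-0.33 ± 0.16, past the threshold except with median centring), were lower on all 6 arrays. Serpina3n, chosen after its value was seen because it is a strong acute phase reactant of mouse liver, was lower in DBA/2J (-0.70 ± 0.42, adjusted p = 0.00234, lower on 5 of 6 arrays). It passed as lower under every other setting, with means from -0.86 to -0.61.

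Negative acute phase proteins, whose levels fall in inflammation, were 2 higher and 3 lower of 14 in liver, with a median of 0.02. The count became 3 without array 4 or 6, and 3 higher and 1 lower with median centring. Serpina6, corticosteroid-binding globulin (0.54 ± 0.27, adjusted p = 0.00199), and Afm, afamin (0.39 ± 0.22), were higher in DBA/2J. Ahsg, fetuin-A (-0.52 ± 0.11), Fetub, fetuin-B (-0.25 ± 0.11), and Rbp4, retinol-binding protein (-0.21 ± 0.10), were lower. The 3 lower genes no longer passed with median centring, nor did Fetub without array 4 or 6, nor Rbp4 with intensities unrestored or without array 1, 3, 4, 5 or 6. Genes of the positive list and of the negative list were thus each found in both directions.

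Of 21 genes of interleukin-6 family signalling, 2 were higher and 2 lower in liver (median -0.00). With median centring it was 1 higher and 4 lower, with intensities unrestored 2 higher and 1 lower, and 0 higher and 2 lower among the 17 left without dim features. Il6ra, the interleukin-6 receptor, was higher (0.95 ± 0.48, adjusted p = 0.000747) on a spot at intensity percentile 0.420. Lifr, the receptor of leukaemia inhibitory factor, was lower (-0.33 ± 0.09) and so was the kinase gene Jak1 (-0.26 ± 0.16), which no longer passed with intensities unrestored or without array 1, 3 or 6. Of the genes at the head of this pathway, named for their place in it, Il6 had -0.20 ± 0.27 and did not pass (adjusted p = 0.142), and Il6st, which encodes gp130, had -0.15 ± 0.16 (adjusted p = 0.153).

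Of 32 genes of interleukin-1, tumour necrosis factor and NF-kB signalling, 1 was higher and 3 lower (median -0.04), and the total of 4 became 1 without array 1 and 2 without array 3. With median centring it was 1 higher and 5 lower, and with intensities unrestored 2 higher and 2 lower. Nfkb2, an NF-kB subunit, was higher (0.30 ± 0.11, not past the threshold with median centring). Nfkbia, the NF-kB inhibitor (-0.24 ± 0.09, not past it without array 1), and the kinase gene Irak1 (-0.22 ± 0.13, not past it with intensities unrestored or without array 1, 3, 5 or 6) were lower.

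Of 16 transcription factors of acute phase genes, 4 were higher and 2 lower in liver (median -0.04), and with median centring 2 higher and 1 lower. With intensities unrestored it was 4 higher and 1 lower. Cebpb (0.28 ± 0.17) and Cebpa (0.28 ± 0.18), which bind C/EBP sites, and the forkhead gene Foxa2 (0.23 ± 0.10) were higher. Hnf4a (-0.27 ± 0.13) and Onecut1 (-0.26 ± 0.17), hepatocyte nuclear factors, were lower. Cebpa, Cebpb and Onecut1 no longer passed with median centring, nor did Hnf4a with intensities unrestored, nor did Cebpa without array 3, Foxa2 without array 1, 4 or 6, or Onecut1 without array 1, 3, 4 or 6.

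Of 19 receptors and partners of acute phase proteins, 2 were higher and 4 lower in liver (median -0.05), and 1 higher and 5 lower with median centring or 1 higher and 4 lower with intensities unrestored. Fpr2, a formyl peptide receptor that binds serum amyloid A, was lowest (-2.03 ± 1.01, adjusted p = 0.000429, lower on 6 of 6 arrays). Mmp9, a metalloproteinase that forms a complex with lipocalin 2, was at -1.18 ± 0.28, on a spot at intensity percentile 14.7. The subunits of the hepatocyte asialoglycoprotein receptor, which clears glycoproteins such as orosomucoid, differed in sign, with Asgr2 at 0.80 ± 0.31 and Asgr1 at -0.33 ± 0.12. Ager, the receptor for advanced glycation end products, was higher (0.20 ± 0.11), but not with median centring or intensities unrestored, nor without array 1, 3, 4, 5 or 6.

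**Figure D5:**
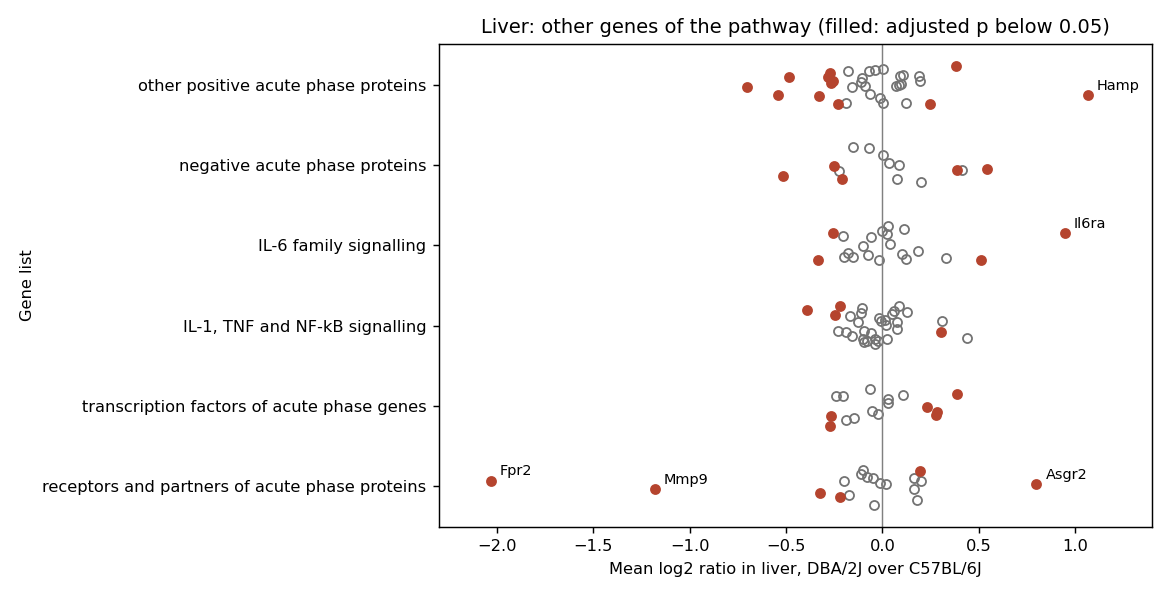
Mean log2 ratio in liver (horizontal axis) of the measured genes of the 6 pathway lists (vertical axis), a point a gene, filled where limma's adjusted p is below the threshold. The lists lie on both sides of 0, and Fpr2 (-2.03), Mmp9 (-1.18) and Hamp (1.06) stand apart.

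Outside liver the same lists gave other genes. In kidney 51 of 133 pathway genes passed, and 41.2% of all features. The counts higher and lower were 6 and 5 of 32 other positive reactants, 2 and 4 of 14 negative reactants, 3 and 2 of 21 interleukin-6 family genes, 5 and 6 of 32 interleukin-1, tumour necrosis factor and NF-kB genes, 4 and 2 of 16 transcription factors, and 4 and 8 of 19 receptors and partners. With median centring 83 passed (Apoa1 in both its lists), 9 and 12, 2 and 4, 8 and 6, 4 and 14, 9 and 2, and 5 and 9 in the same order, and with intensities unrestored 5 and 5, 3 and 3, 2 and 2, 2 and 7, 5 and 1, and 4 and 7. The total of 11 for other positive reactants became 7 without array 1. The complement gene C4b was at 0.97 ± 0.37, on a spot at intensity percentile 11.7, and the endotoxin co-receptor gene Cd14 at -1.19 ± 0.43. Alb, albumin, was at 0.74 ± 0.19. Mmp9 (-2.17 ± 0.24), Fpr2 (-1.44 ± 0.39) and Asgr2 (-0.78 ± 0.21) were lower on all 6 arrays. C4b no longer passed with median centring (0.07).

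In brain 20 of 133 passed, and 14.1% of all features. The counts higher and lower, with Apoa1 (lower) in both its lists, were 2 and 1, 0 and 2, 2 and 2, 1 and 4, 2 and 1, and 0 and 4 for the lists in the same order. With median centring they were 2 and 4, 0 and 4, 0 and 3, 1 and 4, 2 and 2, and 1 and 4, and with intensities unrestored 1 and 1, 0 and 1, 0 and 1, 1 and 3, 3 and 2, and 1 and 2. The total of 20 became 9 without array 4, 12 without array 5, 13 without array 6 and 12 without dim features. Mmp9 was again low (-1.60 ± 0.20), and Mug1 was higher (0.36 ± 0.19), opposite to its sign in liver, but not past the threshold without array 4. Leaving out a single brain array moved 5 of the 6 totals by over 1.5 times. Other positive reactants, 3 in all, became 7 without array 1 and 0 without array 4. Negative reactants, 2 in all, became 1 without array 2, 5 or 6 and 0 without array 3 or 4. Interleukin-6 family genes, 4 in all, became 2 without array 2 or 3 and 1 without array 5. The 5 interleukin-1, tumour necrosis factor and NF-kB genes became 3 without array 2, 2 without array 4 or 6 and 1 without array 5, and the 4 receptors and partners became 2 without array 1, 3, 4 or 6. The gene Ddit3, a stress-induced C/EBP relative, was at 0.47 ± 0.18 and Cntfr, a receptor of the interleukin-6 family, at -0.42 ± 0.11.

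Markers of other cell types in liver were counted beside the liver ratios, where 10.8% of all features passed as higher and 12.2% as lower. Of 12 hepatocyte markers 1 was higher and 2 lower (median 0.09). Of 14 neutrophil granule markers 0 were higher and 4 lower (median -0.04), Mmp9 among them. Of 13 macrophage and Kupffer cell markers 0 were higher and 2 lower (median -0.10), of 5 erythroid markers 1 and 1 (median -0.07), and of 11 lymphocyte and plasma cell markers 1 and 2 (median -0.03). Of 14 kidney tubule markers 0 and 1 passed, of 14 brain cell markers 1 and 0, and of 6 choroid plexus markers 0 and 1. Of 11 pancreas markers 0 were higher and 5 lower (median -0.22). The digestive enzyme genes Amy2 (-1.61 ± 0.52) and Prss2 (-0.92 ± 0.46) named after their values were seen, were both lower on all 6 arrays. The part of these cell types in the liver ratios was not tested.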

How the data were processed

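Log2 ratios of 23040 spots on 18 arrays were analysed as the authors deposited them. Per the labels, Spot extracted the values and limma applied a print-tip lowess. The sources used here do not give versions or background correction. The deposited log2 ratios were not normalised in the file: for 100.0% of values the linear ratio was that of 2 whole numbers (tolerance 1e-12), and array medians ran from -1.65 to 0.16. They were therefore treated as ratios of raw intensities, which departs from the planned design. Spots at 0 on every array, 1275 in all, were left out, leaving 21765.

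Intensities were recovered by continued fractions, with the common factor set from the other arrays of the tissue (assumed SD 0.4 on the log2 scale). On simulated data this factor came back exactly for 76.7% of liver spots, 76.8% in kidney and 77.1% in brain. Ratios were normalised by print-tip loess (span 0.3, 4 iterations, 48 blocks) with limma 3.58.1 in R 4.3.3, against the fitted intensity. Spots of a gene symbol were averaged. Of the spots, 16642 had 1 symbol, 134 several and 4989 none, and 15964 were matched by Entrez identifier to RefSeq. Means were tested against 0 (lmFit, eBayes), and p-values were adjusted by Benjamini-Hochberg over 20218 features. On data simulated for liver (20218 features), 79.1% of genes changed by 0.5 (log2) were called, 98.5% of those changed by 1 and 100% of those changed by 2.

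The members and gene lists were chosen with earlier results of these data known. Named genes are all members and, per pathway list and tissue, up to 3 each way with the largest means, if past the threshold and of 1 sign on 6 arrays (in kidney and brain a few of these are described). The 3 genes most alike were taken for the 3 members with the largest absolute liver means. Promoters came from RefSeq and were aligned with Biopython 1.88. Alternatives were median centring, unrestored intensities, arrays scaled to equal spread, features under the 0.25 quantile of intensity left out, each spot by itself, each array left out, and a replicate block.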

Additional observations from a re-analysis of the deposited data

Results flagged for a closer look

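Among 104 groups of 6 arrays examined, 4 held an array far from the other 5. Chance alone gives about 1 such group in 20. Apcs on kidney array 1 was at 0.25, the others from -0.20 to -0.10. Saa3 on kidney array 5 was at 0.42, the others from 0.03 to 0.16, and on brain array 1 at 0.56, the others from -0.34 to -0.02. Cebpa on liver array 3 was at 0.63, the others from 0.14 to 0.26.

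Orm1 was higher in DBA/2J on every liver array and lower on every brain array, a difference of 0.68 that was not tested because the members were chosen on these ratios. For 7 pathway genes called in opposite directions in a pair of tissues, the difference itself passed limma's test. Adjusted p and SE are given, with n = 6 arrays a tissue. The same arrays gave the calls and the difference, so a pass was likely beforehand and nothing is read from the count. Among all features the difference passed for 20.3% between liver and kidney, 7.81% between liver and brain and 24.4% between kidney and brain. The values are differences between strain ratios, not between levels in the tissues. The Asgr2 ratio was higher in liver than in kidney by 1.58 (SE 0.14, adjusted p = 1.82e-08). The Lifr ratio was lower in liver than in kidney (-0.60, SE 0.12, adjusted p = 0.000837). So were the ratios of Fetub (-0.71, SE 0.16, adjusted p = 0.00227) and Hnf4a (-0.54, SE 0.10, adjusted p = 0.000434). The Mug1 ratio was lower in liver than in brain (-0.91, SE 0.11, adjusted p = 9.17e-06). So was the Itih1 ratio (-0.83, SE 0.15, adjusted p = 0.000871). The ratio of Apoa2, an apolipoprotein gene, was higher in kidney than in brain by 0.52 (SE 0.13, adjusted p = 0.00527). With median centring 4 of these differences no longer passed: Lifr (-0.30, adjusted p = 0.0679), Fetub (0.027, adjusted p = 0.926), Itih1 (-0.36, adjusted p = 0.281) and Apoa2 (0.22, adjusted p = 0.360). Lifr and Fetub were then below 0 in both liver (-0.33 and -0.16) and kidney (-0.028 and -0.19), so that their opposite directions were lost. Itih1 in brain (0.50 ± 0.46, higher on 5 of 6 arrays) came from a spot at intensity percentile 0.544, and with intensities unrestored its difference was -0.42 (adjusted p = 0.162).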

How the results depend on the processing

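Of 294 member means computed under an alternative, 286 moved by less than 1 SD over arrays, 8 moved by more, and 0 changed sign after passing the threshold. Of 74 named gene and tissue pairs, 34 passed in the same direction under every alternative. The count of features past the threshold was 4643 in liver and ranged from 3002 (without array 3) to 4695 with each array left out. In kidney 8334 became 13113 with median centring. In brain 2856 ranged from 1315 (without array 4) to 3401 with each array left out, with 1778, 1634 and 1641 without array 2, 5 or 6. Members past the threshold in kidney went from 1 to 6 with median centring, 3 with unrestored intensities and 2 with equal spread, and 1 to 2 with each array left out. In brain the 1 member became 0 without dim features and 0 to 1 with each array left out. Pathway genes in kidney went from 51 to 83 with median centring, and in brain from 20 to 12 without dim features and 9 to 24 with each array left out. With median centring signs reversed for Clcf1 (0.36), Fetub (-0.19), Il1r2 (-0.18), Lifr (-0.028), Onecut1 (0.22) and Serpinc1 (0.13) in kidney and for Osmr (-0.0031) in brain. The cause of these changes was not tested.

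Features that differed between liver and kidney went from 4111 to 9288 with median centring. Between liver and brain 1580 became 830 with median centring and 774 with unrestored intensities, and 913 (without array 4) to 1448 with each array left out, 1025 without array 6. Between kidney and brain 4933 became 3099 with unrestored intensities. With the replicate number as a block the counts were 3830, 1458 and 4604. Arrays of the same number in different tissues had residual correlations from -0.23 to 0.16. Such low values cannot exclude that the numbers pair the arrays. Spot signal limits the dim spots, and the lack of a dye swap limits every ratio. Among the dim spots are Lcn2, the second Saa4 spot, Apcs, Crp and Orm1 outside liver, and Il6ra. So are Itih1 in brain, Mmp9 in liver, and C4b and Fetub in kidney.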
